A study of Mus musculus with 24 samples.

Results

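The 47 genes described here code for proteins of the synaptic vesicle and of its release and retrieval at the nerve terminal. They were taken as a list of gene names, and all 47 were found in both count tables, among 23845 genes in the RNA table and 20436 in the table of ribosome-protected fragments (RPFs, the short stretches of mRNA that a ribosome shields from nuclease). The list divides by role into 11 proteins of the vesicle membrane, 9 calcium sensors, 11 SNAREs and their regulators, 10 proteins of the active zone and 6 proteins of endocytosis. All 47 passed the minimum count of 10 in the RNA table (14516 genes tested), in the RPF table (12877) and in both together (12785).

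RNA-seq and ribosome profiling were run on acute hippocampal slices from male mice aged 28 to 42 days, of 2 genotypes (wild type, WT, and germline Tsc2+/- littermates, which carry a single functional copy of Tsc2, an upstream repressor of the kinase mTOR) and 2 treatments (vehicle, or 100 µM DHPG for 5 min, which activates the metabotropic glutamate receptors mGluR1 and mGluR5). Each of the 4 groups had 3 replicates in each assay, 24 libraries in all. The deletion came from a cross of CMV-Cre, which is active throughout the body, with floxed Tsc2 mice, so every cell type carried it. Each replicate was a pool of slices from several mice with CA3 cut away, and all slices, vehicle included, were placed in cycloheximide before freezing. The groups are called WT vehicle, WT DHPG, Tsc2+/- vehicle and Tsc2+/- DHPG, and same-numbered replicates are called pairs.

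A nerve terminal releases glutamate or GABA when calcium enters beside a docked vesicle. Synaptobrevin (Vamp) on the vesicle and syntaxin and SNAP-25 on the plasma membrane form the SNARE complex that drives fusion. Synaptotagmins sense the calcium, complexins hold and then help the complex, and Munc13, RIM, ELKS, RIM-binding and liprin-α proteins build the active zone at which vesicles are primed. NSF and the SNAPs take the spent complexes apart, and dynamin, amphiphysin, endophilin and synaptojanin retrieve the membrane. In the hippocampus these mRNAs are made in the cell bodies of pyramidal cells, granule cells and interneurons, which supply the terminals. A CA1-enriched slice therefore holds severed axons of CA3 neurons, but few of the cell bodies that made their mRNA.

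The sequences shown are the start codon contexts of the 3 members with the most and the 3 with the fewest footprints per RNA in WT vehicle slices, a ratio defined with the levels that follow. They were read from the RefSeq transcript with the longest coding sequence on build GRCm38 (mm10), 5′ to 3′ on the gene's strand, and the start codon is in capitals. The first 3 have the most footprints per RNA.
Rims3, chr4:120877860-120877874, plus strand: ctggggaccATGttt
Sypl, chr12:32953959-32953973, plus strand: ggcacacgcATGgct
Syt2, chr1:134740843-134740857, plus strand: tctgccaccATGaga
Slc17a7, chr7:45164074-45164088, plus strand: acagccaccATGgag
Syt7, chr19:10389474-10389488, plus strand: aaggggaccATGtac
Unc13c, chr9:73933562-73933576, minus strand: ttgctctccATGgtg
A purine stood at the third base before the start codon in 39 of the 47 members (83.0%), and in 86.4% of the 12344 genes with a level and a readable context. A G followed the start codon directly in 21 members (44.7%) and in 52.8% of all genes. Both features were present in 18 members (38.3%) and in 45.5% of all genes. Both are features of the Kozak consensus of vertebrate start codons.

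The RNA libraries held 14801679 to 24067838 counts and the RPF libraries 5296006 to 13613673. Members took 2.54 to 2.70% of the RNA counts and 1.997 to 2.08% of the RPF counts of a library. The lowest member count in any RPF library was 10, for Unc13c in Tsc2+/- DHPG replicate 2. In that library 98.2% of the nonzero counts were even numbers. RPF depths and counts of replicates 2 and 3 may therefore not be on the scale of replicate 1. Tsc2, the deleted gene, was measured at 191 ± 4.64 CPM (counts per 1000000 after TMM scaling; SD, n = 3) in WT vehicle RNA and 134 ± 4.84 CPM in Tsc2+/- vehicle RNA, and the 2 genotypes did not overlap in either assay. The 5 CA1 pyramidal markers summed to between 1639 and 1815 CPM in every RNA library. Of 6 CA3 markers, 5 passed the filter and summed to between 518 and 655 CPM. Nnat alone made up 418 to 561 CPM of that sum, and the other 4 lay between 2.11 and 47.2 CPM.

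Levels were compared between genes only per length, as CPM per kilobase (RPKM), for RNA over the transcript and for RPFs over the coding sequence without the 30 bases at each end. In WT vehicle slices the median member stood at 80.2 RPKM in RNA, against 8.29 RPKM for all 12500 genes with a level. In RPFs it stood at 140.0 RPKM, against 16.8 RPKM for all genes. Members spanned 1.34 to 869.9 RPKM in RNA and 0.441 to 4444 RPKM in RPFs. Footprints per RNA, the ratio of RPF to RNA RPKM (called TE, translational efficiency), had a median of 2.08 in members and 2.25 in all genes, and the members' median lay at the 45.7th percentile of all genes.

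**Figure D1:**
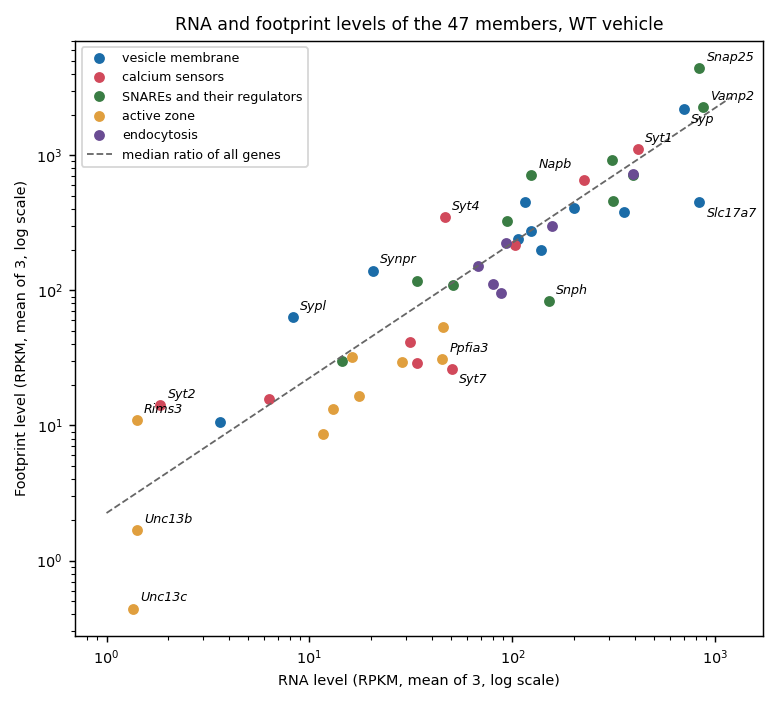
RNA level (x axis, RPKM, log scale) against footprint level (y axis, RPKM, log scale) of the 47 members, each the mean of 3 WT vehicle libraries, coloured by role. The dashed line is the median ratio of all genes, 2.25. Snap25 lay highest at 4444 RPKM in RPFs, Unc13c lowest at 0.441 RPKM, and Slc17a7 and Snph lay well below the line at high RNA levels.

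Among the SNAREs, Snap25, the plasma membrane SNARE, had the highest footprint level of all members. Its RPF level was 4033, 4812 and 4486 RPKM in the 3 WT vehicle libraries and its RNA level was 813, 822 and 869 RPKM. Vamp2, the main vesicle SNARE of the forebrain, had the highest RNA level (869.9 ± 44.7 RPKM, SD, n = 3). Its paralog Vamp1 was at 34.0 ± 0.48 RPKM, with TE values of 2.6 ± 0.0756 for Vamp2 and 3.45 ± 0.0501 for Vamp1. Per kilobase, Vamp2 RNA exceeded Vamp1 RNA 25.6-fold ± 0.967 and Vamp2 footprints exceeded Vamp1 footprints 19.3-fold ± 1.36. Nsf, the ATPase that separates SNARE complexes, and its adaptors Napa and Napb all lay above the median TE of all genes, at 2.95 ± 0.0183, 3.44 ± 0.139 and 5.8 ± 0.487. Napb RNA was 1.32-fold ± 0.140 that of Napa, and Napb footprints were 2.22-fold ± 0.145 those of Napa. Exons of Napb overlap those of LOC108168731 on the same strand over up to 1641 bases, and the part of this in the Napb counts was not tested. Stx1a, the syntaxin of the complex, and Stxbp5 (tomosyn, which binds syntaxin) had TE values of 2.15 ± 0.214 and 2.08 ± 0.276. Cplx1 and Cplx2, the complexins, were both abundant in RNA (314 ± 16.6 and 394 ± 36.4 RPKM) with TE values under the median of all genes, at 1.49 ± 0.422 and 1.8 ± 0.132. Snph, syntaphilin, which binds syntaxin and anchors axonal mitochondria, had the lowest TE of the group at 0.552 ± 0.0347 (SD, n = 3) although its RNA was at 151 ± 4.2 RPKM. Its RNA level was in the 97.3rd percentile of all genes and its TE in the 4.86th.

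Among the vesicle membrane proteins, Slc17a7 (VGLUT1, the transporter that fills vesicles with glutamate) combined the group's highest RNA level with its lowest TE. Its RNA was at 777, 899 and 823 RPKM, close to that of Snap25, while its RPF level was 468, 426 and 447 RPKM. The TE was therefore 0.603, 0.474 and 0.543 in the 3 libraries, against 4.96, 5.86 and 5.16 for Snap25. Syp, synaptophysin, had 698 ± 26.8 RPKM of RNA and a TE of 3.18 ± 0.404. Its relatives Sypl and Synpr were far less abundant (8.29 ± 0.343 and 20.6 ± 2.21 RPKM) with TE values of 7.65 ± 1.73 and 6.84 ± 0.503. The synapsins, which tether vesicles in the reserve pool, differed in both quantities: RNA was at 355 ± 15.04 RPKM for Syn1, 201 ± 14.2 for Syn2 and 3.64 ± 0.266 for Syn3. Their TE values were 1.07 ± 0.0694, 2.01 ± 0.122 and 2.94 ± 0.654 in the same order, so that Syn2 footprints reached 1.06-fold ± 0.0645 those of Syn1 from 0.566-fold ± 0.0232 as much RNA. Sv2b, a vesicle glycoprotein, had a higher TE (3.93 ± 0.16) than Sv2a (2.23 ± 0.283) from a similar RNA level. Syngr1 and Syngr3, the synaptogyrins, were at TE 1.45 ± 0.228 and 2.29 ± 0.5.

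Among the calcium sensors, Syt1, the sensor of fast release, led with 414 ± 16.3 RPKM of RNA and 1111 ± 20.2 RPKM of footprints. Syt2, its close relative, known mainly from inhibitory and hindbrain terminals, had 1.84 ± 0.139 RPKM of RNA and 0.0045-fold ± 0.0005 the RNA of Syt1. Its TE was among the highest of all members (7.82, 6.13 and 8.8 in the 3 libraries). Syt4 and Syt11, which lack full calcium binding, had TE values of 7.47 ± 0.569 and 2.91 ± 0.211. Syt7, the slow high-affinity sensor, lay at the other end with 0.608, 0.424 and 0.537, and Syt3 at 0.86 ± 0.128. Syt5 had a TE of 2.13 ± 0.328. Doc2a and Doc2b, sensors linked to spontaneous release, had TE values of 2.53 ± 0.655 and 1.32 ± 0.233, and Doc2b RNA was 5.04-fold ± 0.659 that of Doc2a.

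The active zone genes had the lowest median TE of the 5 roles, 1.03, at the 16.3rd percentile of all genes. Their coding sequences were the longest, with a median of 4009.5 bases against 1683 bases in all members and 1468.5 in all genes. Coding length is part of TE, as the divisor of the RPF counts, so the 2 are not independent. Unc13a (Munc13-1, the vesicle priming factor) was at 45.4 ± 2.06 RPKM of RNA with a TE of 1.18 ± 0.167, and Unc13b (Munc13-2) at 1.41 ± 0.0904 RPKM and 1.21 ± 0.324. Unc13c (Munc13-3), best known from the cerebellum, had the lowest TE of all members (0.325, 0.256 and 0.419 in the 3 libraries), from footprint levels of 0.422, 0.382 and 0.521 RPKM. Rims1 and Rims2, the large RIM scaffolds, had TE values of 0.963 ± 0.202 and 0.736 ± 0.0524. Rims3, a short RIM isoform gene with a coding sequence of 924 bases, had the highest of all members (8.11, 6.62 and 8.97). Before division by length its WT vehicle means were close, at 9.18 CPM in RNA and 9.52 CPM in RPFs. Its high TE thus rests on the annotated transcript of 6521 bases, whose use in these slices was not tested. Rimbp2, Erc2 (ELKS2) and Ppfia3 (liprin-α3) lay at 1.01 ± 0.0861, 1.05 ± 0.183 and 0.693 ± 0.158, and Ppfia2 (liprin-α2) at 1.97 ± 0.263. Aside from Rims3, all active zone genes lay under the median TE of all genes.

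The 6 endocytosis genes spanned the narrowest TE range, 2.21-fold from lowest to highest. Dnm1, the dynamin that cuts vesicles from the membrane, was the most abundant with 391 ± 28.3 RPKM of RNA. Its TE was 1.87 ± 0.189, that of Sh3gl2 (endophilin A1) 1.92 ± 0.116, that of Synj1 (synaptojanin) 2.27 ± 0.363 and that of Snap91 (the clathrin adaptor AP180) 2.43 ± 0.21. Amph (amphiphysin) and Bin1 (amphiphysin 2) were lower at 1.39 ± 0.0607 and 1.1 ± 0.166.

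**Figure D2:**
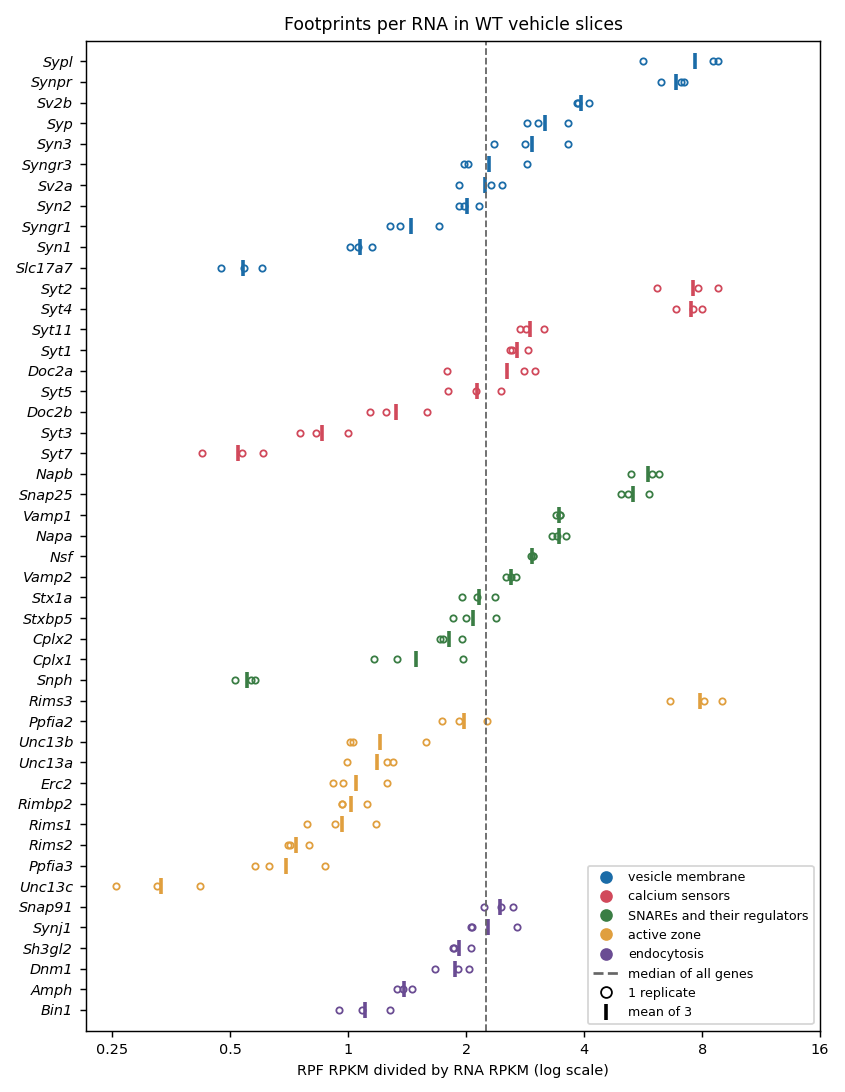
Footprints per RNA (x axis, RPF RPKM divided by RNA RPKM, log scale) of each member in WT vehicle slices, ordered by role and level. Open circles are the 3 replicates, vertical marks their mean, and the dashed line the median of all genes (2.25). Members ran from 0.333 (Unc13c) to 7.90 (Rims3), and 9 of the 10 active zone genes lay left of the line.

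From lowest to highest mean TE the members spanned 23.7-fold. In the order of the means, 41 of the 46 neighbouring pairs had overlapping replicates, so single steps in the order are not resolved by 3 libraries. As a description over the 47 genes, which share the same libraries, TE had a Spearman rho of -0.53 with coding length in members and -0.36 in all genes. Coding length is itself the divisor of the RPF counts in TE, so a negative rho is partly built into the ratio. With the GC content of the coding sequence rho was -0.30 in members and -0.46 in all genes. RNA and RPF levels had a rho of 0.92 in members and 0.87 in all genes. The ratio is not a count of ribosomes per molecule, since transcript lengths were taken from the annotation and not from the slices. With the longest transcript in place of the one with the longest coding sequence, the TE of Snap91 was 3.62 in place of 2.43 and that of Rimbp2 1.51 in place of 1.01. That of Syn2 was 2.87 in place of 2.01 and that of Syt7 0.71 in place of 0.52. The ratios of Syn2 to Syn1 given above rest on the same choice of transcript.

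The first question of the design was what loss of a Tsc2 copy did in unstimulated slices. None of the 47 members was called in RNA, RPFs or TE by edgeR's quasi-likelihood test with Benjamini-Hochberg adjustment over all genes (adjusted p under 0.1), and DESeq2 called none either. Of all genes, 0.0964% were called in RNA, 0.0233% in RPFs and 0% in TE. At an unadjusted p under 0.05 there were 3 members in RNA (4.95% of all genes), 3 in RPFs (6.71%) and 3 in TE (5.08%). All 47 members had a 95% interval of the log2 fold change inside ±0.5 in RNA, 44 in RPFs and 41 in TE. In these bulk libraries fewer cells of a type and less RNA per cell cannot be told apart.

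Of the members with the same sign in all pairs, Snph and Vamp2 had the smallest p in RNA. Snph RNA was at 723, 729.8 and 692 CPM in the 3 WT vehicle libraries and 804, 780.3 and 767 CPM in Tsc2+/- vehicle, groups that did not overlap. The log2 fold change was 0.13 ± 0.047 SE (adjusted p = 0.911). Vamp2 RNA was at 1780.0, 1972 and 1895 CPM and 2111, 1978 and 1995 CPM, also without overlap, with an estimate of 0.11 ± 0.046 SE (adjusted p = 0.961) that was 0.039 without replicate 1. On the lower side stood Syn3 (34.6, 30.6 and 30.5 CPM in WT against 28.7, 30.1 and 27.9 CPM in Tsc2+/-) and Vamp1 (92.1, 94.7 and 93.1 against 85.1, 87.6 and 92.4 CPM), at -0.13 ± 0.089 and -0.078 ± 0.059 on the log2 scale with adjusted p of 0.974 and 0.977. Without replicate 1 the Syn3 estimate was -0.077. Exons of Syn3 overlap those of Fbxo7 on the opposite strand over up to 3128 bases, and whether the counting used strand is not stated. Syn1 RNA (0.10 ± 0.047, unadjusted p = 0.0359) had unlike signs among its pairs and was at 0.051 without replicate 1, with 1099.6, 1193 and 1126 CPM in WT and 1271, 1171 and 1236 CPM in Tsc2+/-. When a ComBat correction that was given the group labels preceded DESeq2, Snph (adjusted p = 0.0149), Vamp2 (0.0868), Syn1 (0.0519) and Unc13a (0.0645) were called. The share of all genes called in that fit is not given here.

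In footprints the estimates lay mostly under 0. The log2 fold change was positive for 10 of 47 members in RPFs and for 11 in TE, against 49.2% and 49.8% of all genes. In RNA it was positive for 32, against 49.3% of all genes. The median member was at -0.030 in RPFs and -0.055 in TE. Leaving out a replicate or a library gave 10 to 18 positive members in RPFs, with 18 without WT vehicle replicate 3, and 9 to 21 in TE, with 21 without replicate 3. The RNA count then ran from 24 to 35, with 24 without replicate 3. Correcting every library for GC content and gene length gave 22 in RPFs and 16 in TE. WT vehicle replicate 3 also had the lowest sum of the 6 astrocyte markers in RNA, 6168 CPM against 7360 to 8243 CPM in the other libraries, and the part of this in the counts was not tested. Some marker sets also leaned to 1 side in this comparison and others did not, and no marker was called. Oligodendrocyte markers had a positive estimate in 5 of 6 genes in RNA (median 0.11) and in RPFs (median 0.090), and CA1 pyramidal markers in 4 of 5 in RNA (median 0.050) and in 0 of 5 in RPFs (median -0.038). Dentate granule markers were positive in 1 of 6 in RNA and 0 of 6 in RPFs, CA3 markers in 4 of 5 in both assays, astrocyte markers in 5 and 4 of 6 and endothelial markers in 0 and 2 of 6. Interneuron markers were positive in 4 of 8 in RNA and 3 of 8 in RPFs, and microglia markers in 3 and 4 of 6. Their part in the members' estimates was not tested. In TE all 5 roles had a median under 0, from -0.042 in the vesicle membrane group to -0.069 in the active zone group.

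Cplx1 had the smallest p among members in RPFs and was described after its values were seen, since its pairs did not share a sign. Its footprints were at 199.9, 149.6 and 129 CPM in WT vehicle and 129.5, 123.3 and 134 CPM in Tsc2+/- vehicle. The first WT vehicle library stood apart from the other two, and the groups overlapped. The log2 fold change was -0.31 ± 0.087 SE (adjusted p = 0.484), and it was -0.14 without WT vehicle replicate 1 and -0.44 without WT vehicle replicate 3, where the adjusted p was 0.0146. Its RNA was at 646, 712 and 707 CPM against 702, 685 and 701 CPM, with a log2 fold change of 0.017 ± 0.046. In TE the estimate was -0.33 ± 0.097 SE (adjusted p = 0.843). Cplx2 leaned the same way: RPFs were at 284, 240.4 and 212 CPM against 223, 212 and 222 CPM (-0.16 ± 0.066, and -0.083 without WT vehicle replicate 1) and TE at 1.95, 1.71 and 1.75 against 1.5, 1.55 and 1.56, without overlap and with an estimate of -0.24 ± 0.08 SE (adjusted p = 0.932).

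The other members that led in footprints were Syt11, Syngr1 and Snap25, and in TE Synpr and Slc17a7. Syt11 RPFs were at 773, 808 and 832 CPM in WT vehicle against 858, 841 and 842 CPM in Tsc2+/- vehicle. Syngr1 RPFs were at 150.2, 120.2 and 117 against 122, 113 and 115 CPM and Snap25 RPFs at 2263, 2699 and 2516 against 2180.5, 2576 and 2425 CPM. Their log2 fold changes were 0.076 ± 0.048, -0.15 ± 0.073 and -0.058 ± 0.042, with adjusted p between 0.741 and 0.842. Without WT vehicle replicate 1 the Syngr1 estimate was -0.042, without replicate 1 that of Syt11 was 0.041, and after the correction for GC content and gene length that of Snap25 was -0.12. Slc17a7 TE was at 0.603, 0.474 and 0.543 in WT and 0.494, 0.447 and 0.514 in Tsc2+/- (-0.14 ± 0.07 SE, adjusted p = 0.932), and Synpr TE at 6.27, 7.07 and 7.19 against 7.73, 7.41 and 7.98 (0.16 ± 0.11 SE, adjusted p = 0.932), and after the same correction these were -0.078 and 0.063. The libraries of the 2 genotypes did not overlap for Syt11 and Synpr, and overlapped for Syngr1, Snap25 and Slc17a7.

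**Figure D3:**
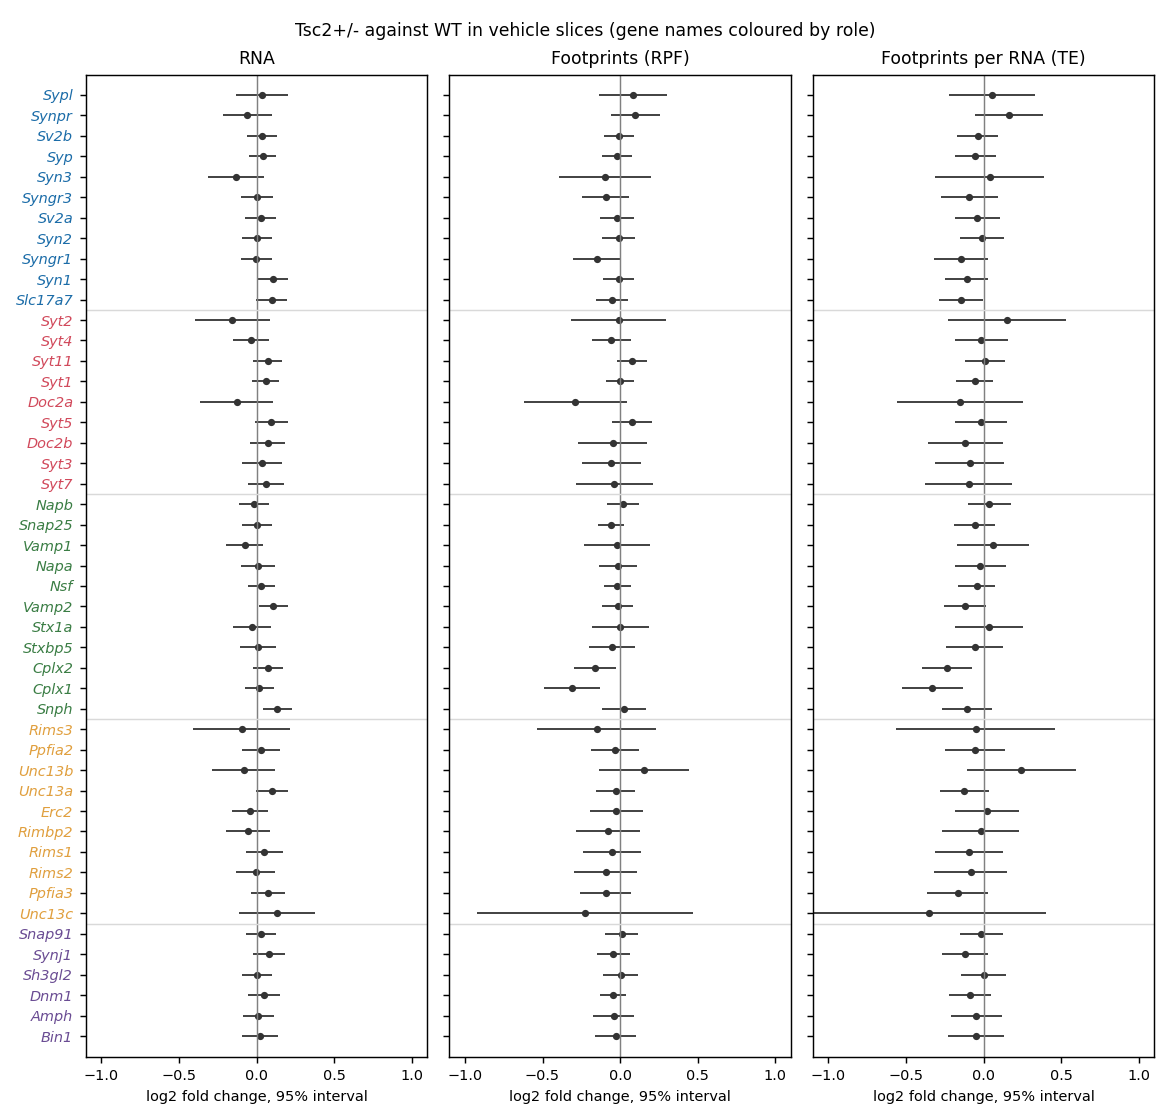
Log2 fold change of each member in Tsc2+/- against WT vehicle slices (x axis, 0 means no difference), with 95% intervals as bars, in RNA, footprints and footprints per RNA. Points in the RNA panel lie within -0.16 and 0.13, and 36 of 47 points in the panel of footprints per RNA lie left of 0, most with intervals that include it.

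After DHPG the genotypes were compared again. No member was called in any of the 3 measures, in a background of 0.0482% of genes in RNA, 0.0155% in RPFs and 0% in TE, and DESeq2 called none. With no adjustment, p was under 0.05 for 1 member in RNA (4.73% of all genes), 3 in RPFs (4.25%) and 2 in TE (2.69%). Positive estimates were found for 26 members in RNA, 27 in RPFs and 26 in TE, against 49.9%, 48.4% and 49.4% of all genes.

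Syt2 had the largest RNA estimate of any member. It was at 14.5, 13.02 and 18.1 CPM in WT DHPG and 11.2, 10.4 and 14.2 CPM in Tsc2+/- DHPG. Each Tsc2+/- value was under its pair, although the groups overlapped, and the log2 fold change was -0.35 ± 0.12 SE (adjusted p = 0.741). In vehicle the values were 13.4, 12.2 and 14.1 against 10.3, 10.6 and 14.7 CPM, and averaged over both treatments the estimate was -0.25 ± 0.084 SE (adjusted p = 0.504). Doc2a RNA was at 18.3, 20.8 and 16.4 against 17.5, 17.2 and 14.6 CPM, Rims1 RNA at 137, 127 and 125 against 146, 139.6 and 135 CPM and Sh3gl2 RNA at 431, 436 and 422 against 473, 459 and 437 CPM, with log2 fold changes of -0.17 ± 0.11, 0.11 ± 0.058 and 0.087 ± 0.047. Leaving out 1 library made each smaller, at -0.069 without Tsc2+/- DHPG replicate 2, 0.072 without WT DHPG replicate 2 and 0.053 without Tsc2+/- DHPG replicate 1.

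In footprints after DHPG, Syt3 was at 45.9, 45.2 and 43.8 CPM in WT and 53.9, 54.2 and 50.7 CPM in Tsc2+/-, without overlap, at 0.24 ± 0.089 SE (adjusted p = 1.0). Rims1 was at 66.5, 68.2 and 63.1 against 79.4, 72.9 and 73.4 CPM (0.19 ± 0.088). On the lower side, Synpr was at 111.7, 127.8 and 102.4 against 99.0, 98.7 and 102.2 CPM (-0.18 ± 0.076) and Doc2b at 49.4, 52.0 and 53.5 against 45.6, 47.5 and 42.7 CPM (-0.19 ± 0.11). The genotypes did not overlap in any of the 4, which were picked by like signs and small p, a choice that favours this. The Synpr estimate was -0.093 without replicate 2 and that of Doc2b -0.12 without replicate 3. In TE, Syt3 was at 0.751, 0.803 and 0.786 against 0.931, 0.967 and 0.854, Syngr3 at 2.52, 2.32 and 2.32 against 2.62, 2.63 and 2.64, Doc2b at 1.33, 1.46 and 1.44 against 1.2, 1.32 and 1.05 and Rims2 at 0.677, 0.648 and 0.87 against 0.602, 0.601 and 0.799. The genotypes overlapped only for Rims2, and all 4 had an adjusted p above 0.99.

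Summed markers of dentate granule cells were lower in the Tsc2+/- DHPG libraries, while 0 of the 6 genes were called in this comparison in RNA or RPFs (Prox1 had the smallest adjusted p, 0.239). The 6 listed markers summed to 74.6 to 82.3 CPM in the WT DHPG RNA libraries and to 54.9 to 63.3 CPM in the Tsc2+/- DHPG ones, and to 69.1 to 79.6 and 45.1 to 56.8 CPM in RPFs. In vehicle the RNA sums were 61.8 to 98.3 CPM in WT and 61.5 to 77.0 CPM in Tsc2+/-, and the RPF sums 54.8 to 98.8 and 66.6 to 68.9 CPM. Stxbp6 alone was at 30.6 to 44.4 CPM over the RNA libraries, a large part of these sums, and Tdo2 at 0.0 to 0.807 CPM. None of the 6 was at 0 in all libraries of a group, and 1, Prox1, was called lower in Tsc2+/- RNA averaged over treatments (log2 fold change -0.41, adjusted p = 0.0256, but not called in 8 of 24 alternatives, among them without WT vehicle replicate 1 at 0.172). The part of dentate cells in the values of Syt2, Synpr, Doc2a and Doc2b was not tested. Interneuron markers, 8 of 8 detected, summed to 961.8 to 974.7 CPM in WT DHPG RNA and 929.8 to 973.9 CPM in Tsc2+/- DHPG RNA.

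Averaged over treatments, no member was called between genotypes, in a background of 0.248% of genes called in RNA, 0.0544% in RPFs and 0% in TE, and DESeq2 called none. The unadjusted p was under 0.05 for 4 members in RNA (6.28% of all genes), 2 in RPFs (6.83%) and 2 in TE (4.03%). Syt1 was 1 of the 5 members whose RNA had the same sign in all 6 pairs, the condition for naming. WT slices were at 2047, 2031 and 1903 CPM with vehicle and 2013, 1967 and 1966 CPM with DHPG, and Tsc2+/- slices at 2059, 2063 and 2106 against 2095, 2106 and 2021 CPM. The log2 fold change was 0.062 ± 0.03 SE (adjusted p = 0.791), a 95% interval of 0.0004 to 0.12. Snph, Syn3 and Vamp1 RNA, described for vehicle, were at 0.077 ± 0.033, -0.13 ± 0.063 and -0.072 ± 0.041. In RPFs Rims2 was at 38.8, 39.4 and 41.8 against 38.7, 35.9 and 45.6 CPM in the 2 WT groups and at 35.9, 38.7 and 38.3 against 35.4, 34.8 and 41.5 CPM in the 2 Tsc2+/- groups (-0.097 ± 0.069), and in TE it was at -0.11 ± 0.081, or -0.067 without Tsc2+/- vehicle replicate 3. Dnm1 RPFs, at 1847 ± 60.5 CPM in WT vehicle and 1789.5 ± 57.0 CPM in Tsc2+/- vehicle (SD, n = 3), had an estimate of -0.039 ± 0.03 over both treatments, which was 0.002 after the correction for GC content and gene length.

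The second question was how the release genes responded to 5 min of DHPG in WT slices. This comparison shares its WT vehicle libraries with the genotype comparison in vehicle, so its values and theirs are not independent. No member was called, in a background of 0% of genes in RNA, 0.0311% in RPFs and 0.0548% in TE, and DESeq2 called none, although it called 99 genes in TE. Without adjustment, a p under 0.05 was reached by 3 members in RNA (6.07% of all genes), 2 in RPFs (7.07%) and 5 in TE (8.67%).

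In RNA the leading members were Syn1 and Snph. Syn1, which tethers reserve vesicles, was at 1099.6, 1193 and 1126 CPM in WT vehicle and 1319, 1207 and 1267 CPM in WT DHPG, without overlap, and the log2 fold change was 0.15 ± 0.047 SE (adjusted p = 0.8). Without WT vehicle replicate 2 it was 0.21 with an adjusted p of 0.0571, without WT vehicle replicate 1 it was 0.10 with an adjusted p of 0.992, and after the correction for GC content and gene length it was 0.081. After ComBat given the group labels DESeq2 called Syn1, Snph, Vamp2 and Unc13a, with the share of all genes called in that fit not given here. Snph was at 723, 729.8 and 692 against 773, 774 and 819.7 CPM, also without overlap, at 0.14 ± 0.047 SE (adjusted p = 0.8), and at 0.052 after the same correction. Vamp2, not among the 2 leading ones, had a log2 fold change of 0.11 ± 0.046 (0.052 without WT vehicle replicate 1) and values of 2053, 2035 and 2005 CPM in WT DHPG. On the lower side Sypl was at 39.8, 37.5 and 36.8 against 32.2, 33.1 and 35.6 CPM (-0.17 ± 0.087 SE, adjusted p = 0.807) and Ppfia2 at 109, 105 and 100.1 against 99.6, 96.3 and 98.9 CPM (-0.091 ± 0.061). The correction brought Sypl to -0.071, and Ppfia2 was at -0.060 without WT vehicle replicate 2. Of the 47 members, 32 had a positive estimate in RNA, 20 in RPFs and 14 in TE, against 49.6%, 49.4% and 49.8% of all genes. The RNA count was 25 to 38 when a replicate or library was left out, and 25 without WT vehicle replicate 3.

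In footprints, Syt1 was at 1325, 1327 and 1368 CPM in WT vehicle and 1388, 1427 and 1432 CPM in WT DHPG, each DHPG library above all vehicle libraries (0.079 ± 0.044 SE, adjusted p = 0.726). Sh3gl2 was at 285, 323 and 295 against 314, 328 and 314 CPM (0.083 ± 0.055). On the lower side, Cplx2 was at 284, 240.4 and 212 against 234, 222 and 210.2 CPM (-0.15 ± 0.066) and Syt7 at 57.7, 37.1 and 45.3 against 44.9, 36.2 and 38.8 CPM (-0.22 ± 0.12). Without WT vehicle replicate 1 these were -0.071 for Cplx2 and -0.058 for Syt7, and Sh3gl2 was at 0.044 without WT DHPG replicate 1. All 10 active zone genes had an estimate under 0 in RPFs, from -0.22 to -0.0009 with a median of -0.096, against 49.4% positive among all genes. Leaving out a replicate or library left 0 to 5 of them positive, with 4 without WT vehicle replicate 3, and 3 were positive after the correction for GC content and gene length. CA1 pyramidal markers were positive in 0 of 5 genes in RPFs (median -0.084), microglia markers in 0 of 6 (median -0.11) and oligodendrocyte markers in 1 of 6. Astrocyte markers were positive in 5 of 6, interneuron markers in 4 of 8, CA3 markers in 2 of 5 and dentate and endothelial markers each in 2 of 6. None of these markers was called, and their part in the members' estimates was not tested.

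In TE the smallest p values in WT were those of Cplx1, Cplx2 and Sypl. Sypl TE was at 5.66, 8.54 and 8.76 in WT vehicle and 10.3, 9.57 and 9.22 in WT DHPG, without overlap, and the log2 fold change was 0.37 ± 0.14 SE (adjusted p = 0.406). Its RPFs in WT vehicle were 35.6, 50.7 and 51.0 CPM, the first library well under the other two, and without replicate 1 the TE estimate was 0.13. Cplx2 TE was at 1.95, 1.71 and 1.75 against 1.59, 1.56 and 1.53 (-0.22 ± 0.079 SE, adjusted p = 0.375), and Cplx1 TE at 1.97, 1.34 and 1.16 against 1.26, 1.18 and 1.2 (-0.29 ± 0.096 SE, adjusted p = 0.34), again with WT vehicle replicate 1 apart from the rest. Without WT vehicle replicate 1 Cplx1 TE was at -0.073. Snph TE was at 0.578, 0.566 and 0.513 against 0.519, 0.506 and 0.468 (-0.16 ± 0.081), and Sh3gl2 TE at 1.85, 2.06 and 1.86 against 2.04, 2.12 and 2.09 (0.12 ± 0.072). After the correction for GC content and gene length Snph was at -0.0058, Sh3gl2 at 0.070 and Cplx2 at -0.11. The count of 14 positive members in TE became 27 after the correction for GC content and gene length, and 22 without replicate 1 or without replicate 3.

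**Figure D4:**
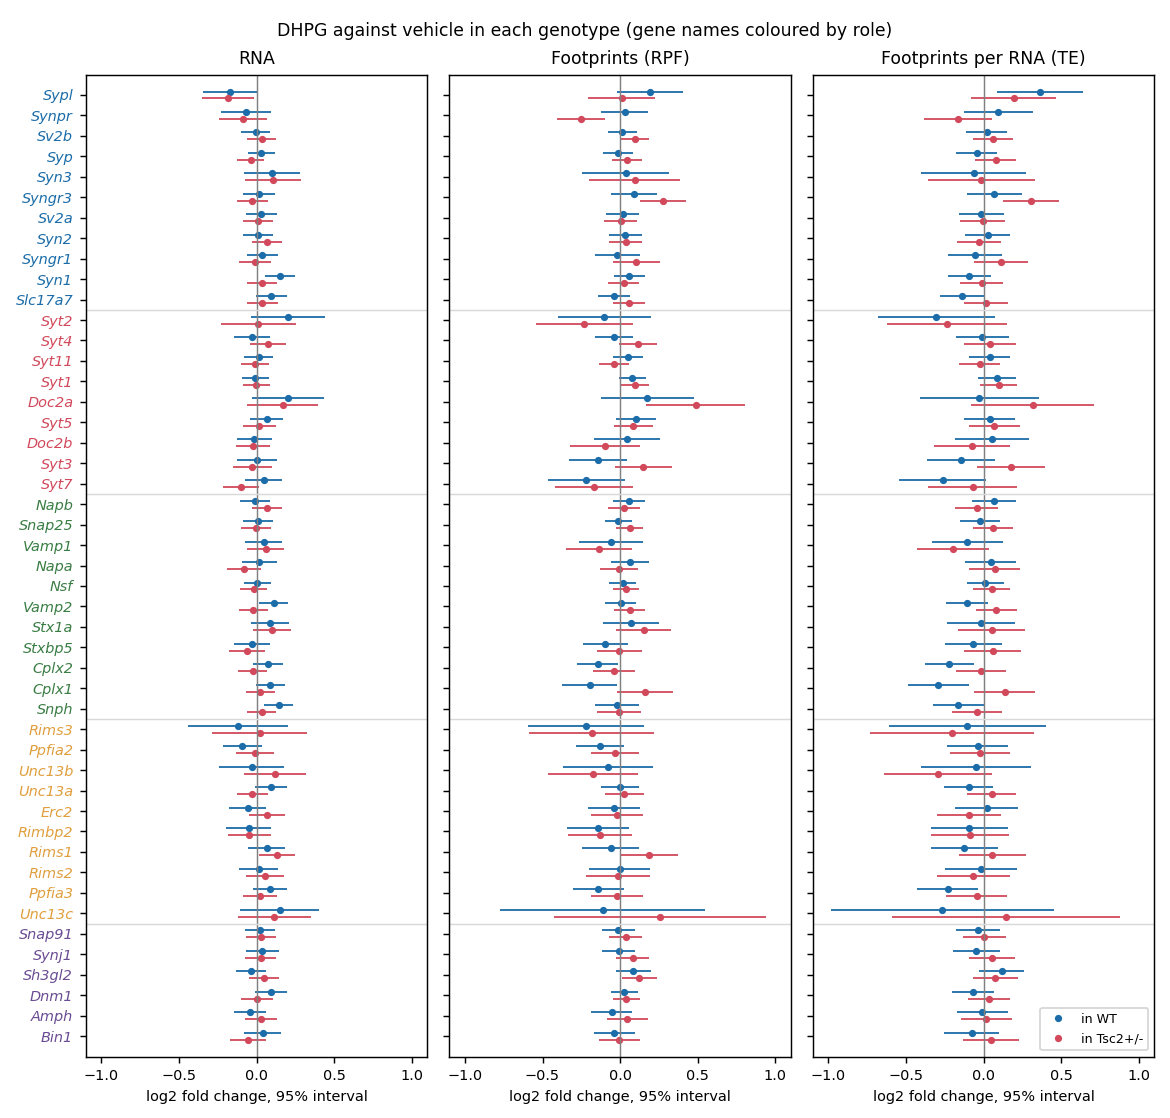
Log2 fold change of each member for DHPG against vehicle (x axis, 0 means no difference) in WT (blue) and Tsc2+/- slices (red), with 95% intervals as bars, in RNA, footprints and footprints per RNA. Syngr3 (0.28) and Doc2a (0.49) footprints in Tsc2+/- slices lie furthest right with intervals that leave out 0, and Synpr (-0.25) furthest left.

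In Tsc2+/- slices DHPG gave no call among members either, in a background of 0% of genes in RNA, 0% in RPFs and 0% in TE, and DESeq2 called none. Unadjusted p values under 0.05 were found for 2 members in RNA (4.86% of all genes), 6 in RPFs (3.87%) and 1 in TE (3.32%). The 6 in RPFs were Syngr3, Doc2a, Syt1, Rims1 and Sh3gl2 with positive estimates and Synpr with a negative one.

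Syngr3, a synaptogyrin of the vesicle membrane, had the smallest p of these. Its footprints were at 146, 141 and 143 CPM in Tsc2+/- vehicle and 169.8, 174 and 177 CPM in Tsc2+/- DHPG, without overlap. The log2 fold change was 0.28 ± 0.073 SE (adjusted p = 0.999), with a 95% interval of 0.13 to 0.43. Its RNA was at 201, 214 and 213 against 201, 206 and 208 CPM, and its TE log2 fold change was 0.30 ± 0.089 SE (adjusted p = 1.0). In WT the footprints were at 179, 141 and 137 CPM in vehicle and 168, 163 and 156 CPM with DHPG (0.089 ± 0.072), and that estimate ran from 0.029 without WT vehicle replicate 3 to 0.21 without WT vehicle replicate 1. With only the 2 Tsc2+/- groups in the fit the adjusted p was 0.0487, and it was 0.0654 without WT vehicle replicate 1. Syngr3 lies on chromosome 17, 52.4 kb from Tsc2, and its RNA log2 fold change between genotypes in vehicle was -0.0004 ± 0.051.

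Doc2a footprints were at 14.2, 18.0 and 11.2 CPM and 18.7, 23.2 and 19.4 CPM in Tsc2+/- slices, without overlap, at 0.49 ± 0.16 SE (adjusted p = 0.999). Its counts were low and its replicates the most spread of any member in RNA, and its exons overlap those of Ino80e on the opposite strand over up to 815 bases. Synpr, synaptoporin, was at 111.6, 128.1 and 119.9 against 99.0, 98.7 and 102.2 CPM, without overlap, at -0.25 ± 0.077 SE (adjusted p = 0.999). In WT it was at 115.6, 109.2 and 110.3 against 111.7, 127.8 and 102.4 CPM. Syt2 footprints were at 15.2, 15.2 and 20.6 against 14.3, 8.97 and 19.2 CPM (-0.23 ± 0.15, and -0.083 without replicate 2). The dentate marker sums in RPFs were 66.6 to 68.9 CPM in Tsc2+/- vehicle and 45.1 to 56.8 CPM in Tsc2+/- DHPG, and the genes had a negative estimate in 6 of 6. Oligodendrocyte markers were positive in 0 of 6 in RPFs (median -0.18), astrocyte markers in 0 of 6 (median -0.051) and microglia markers in 1 of 6 (median -0.18). Endothelial markers were positive in 1 of 6, CA1 pyramidal and CA3 markers each in 2 of 5 and interneuron markers in 4 of 8. None of these genes was called. The part of these cells in the members' RPF values was not tested.

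The remaining leading values in Tsc2+/- slices were smaller. In RNA, Rims1 was at 125, 137 and 122 CPM in vehicle and 146, 139.6 and 135 CPM with DHPG (0.13 ± 0.057), Napb at 445, 453 and 457 against 485, 467 and 469 (0.069 ± 0.048), Syt7 at 303, 257 and 299.6 against 256, 249.8 and 296 (-0.10 ± 0.057) and Napa at 234, 223 and 224 against 203, 223 and 218 (-0.082 ± 0.054). In TE, Syt1 was at 2.56, 2.57 and 2.6 in vehicle and 2.77, 2.65 and 2.85 with DHPG (0.097 ± 0.06), Vamp1 at 3.92, 3.31 and 3.49 against 3.11, 3.3 and 3.02 (-0.20 ± 0.12) and Unc13b at 1.45, 1.56 and 1.15 against 1.29, 1.03 and 1.02 (-0.29 ± 0.17). None of the 7 had an adjusted p under 0.95. Without replicate 1 the RNA estimates of Napb, Syt7 and Napa were 0.038, -0.032 and -0.023 and the TE estimate of Vamp1 was -0.11. Rims1 RNA was at 0.078 without Tsc2+/- vehicle replicate 1 and Unc13b TE at -0.17 without replicate 2.

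Averaged over genotypes, DHPG gave no call among members, in a background of 0.0207% of genes in RNA, 0.0311% in RPFs and 0.0469% in TE, and DESeq2 called none. Before adjustment, p was under 0.05 for 6 members in RNA (7.61% of all genes), 7 in RPFs (6.96%) and 5 in TE (8.1%). Syt1 footprints did not overlap between treatments in either genotype. WT slices were at 1325, 1327 and 1368 CPM with vehicle and 1388, 1427 and 1432 CPM with DHPG, and Tsc2+/- slices at 1319, 1326 and 1370.0 against 1453, 1399 and 1443 CPM. They were higher with DHPG in 6 of 6 pairs, and the log2 fold change was 0.088 ± 0.031 SE (adjusted p = 0.535), that is a 95% interval of 0.025 to 0.15. Like signs in all 6 pairs were the condition for naming a member here, and 3 of the 47 met it in RPFs. The TE estimate of Syt1 was 0.091 ± 0.042. Sh3gl2 footprints, at 279.5, 316 and 312 against 311, 345 and 332 CPM in the Tsc2+/- groups, were also higher with DHPG in 6 of 6 pairs, at 0.10 ± 0.039 SE (adjusted p = 0.586).

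Sypl was 1 of the 4 members whose TE had like signs in all 6 pairs, the condition for naming. Its TE was higher with DHPG (7.91, 8.49 and 7.27 against 9.0, 9.56 and 8.28 in the Tsc2+/- groups), with an estimate of 0.28 ± 0.097 SE (adjusted p = 0.427) that was 0.15 without replicate 1. Its RNA had an estimate of -0.18 ± 0.06 SE (adjusted p = 0.518) over both genotypes, with 35.4, 37.3 and 43.8 CPM in Tsc2+/- vehicle and 36.2, 31.9 and 34.4 CPM in Tsc2+/- DHPG. Syngr3 footprints stood at 0.18 ± 0.051 SE (adjusted p = 0.296), the smallest adjusted p of any member in this comparison, and Doc2a footprints at 0.33 ± 0.11 SE (adjusted p = 0.44), or 0.21 without WT vehicle replicate 2. Without WT vehicle replicate 1 the Syngr3 estimate was 0.24 with an adjusted p of 0.0091. In RNA, Slc17a7 (0.066 ± 0.034) and Cplx1 (0.056 ± 0.033) led among members with 6 like pairs, and in TE Vamp1 was at -0.15 ± 0.081. After the correction for GC content and gene length these RNA values were 0.015 and 0.029 and Sypl RNA was at -0.11, and Vamp1 TE was at -0.096 without replicate 1. Slc17a7 RNA was at 2284, 2642 and 2420.3 CPM with vehicle and 2641, 2675 and 2531 CPM with DHPG in WT slices, and at 2777, 2596 and 2491 against 2786, 2608 and 2668 CPM in Tsc2+/- slices.

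**Figure D5:**
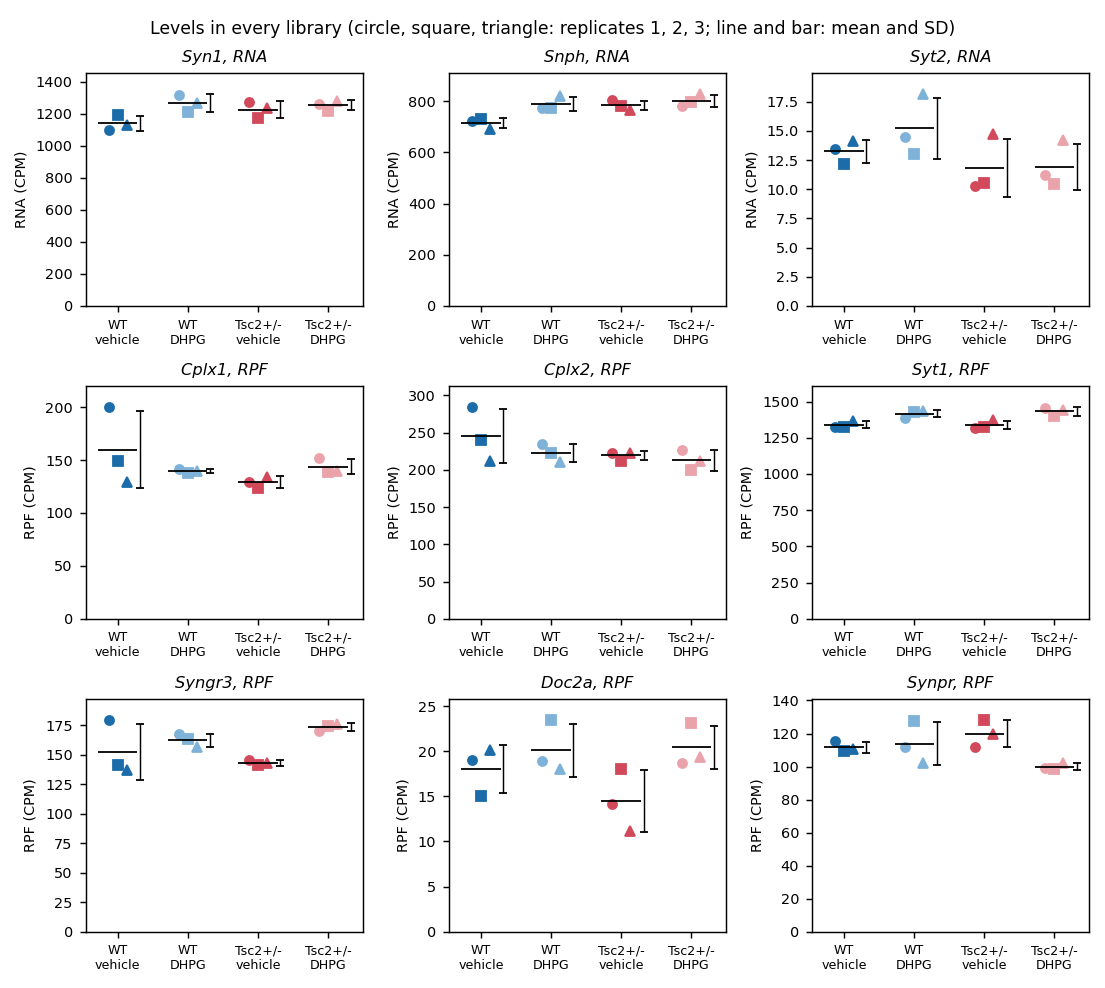
Level of 9 measurements in each of the 12 libraries of an assay (y axis, CPM from 0), by group. Circles, squares and triangles are replicates 1, 2 and 3, horizontal lines the mean and bars the SD of 3. Syt1 footprints with DHPG lie above vehicle in both genotypes (1416 and 1431 CPM against 1340 and 1338 CPM on average), and WT vehicle replicate 1 lies apart in Cplx1 and Syngr3 footprints.

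The difference between the genotypes in their DHPG response was tested directly as an interaction, in which a positive value means a larger DHPG estimate in Tsc2+/- than in WT. No member was called, in a background of 0% of genes in RNA, 0% in RPFs and 0% in TE, and DESeq2 called none. A p under 0.05 before adjustment was found for 0 members in RNA (3.51% of all genes), 3 in RPFs (3.84%) and 3 in TE (3.77%). The interaction estimate was positive for 34 members in RPFs and 35 in TE, with medians of 0.040 and 0.050, and for 18 in RNA, against 49.3%, 49.8% and 50.01% of all genes. In RPFs that count was 27 without replicate 1 and 27 after the correction for GC content and gene length, and in RNA it ranged from 13 to 23 when a replicate or library was left out. In TE it was 26 without WT vehicle replicate 3 and 31 after the correction for GC content and gene length. The WT vehicle libraries enter this term as well as the genotype comparison in vehicle and the DHPG comparison in WT.

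The largest TE interaction was that of Cplx1, at 0.43 ± 0.14 SE (adjusted p = 1.0), with WT values of 1.97, 1.34 and 1.16 with vehicle and 1.26, 1.18 and 1.2 with DHPG, and Tsc2+/- values of 1.17, 1.14 and 1.22 against 1.36, 1.28 and 1.24. It ranged from 0.18 without replicate 1 to 0.61 without replicate 3. Synpr footprints had an interaction of -0.28 ± 0.11 SE (adjusted p = 0.996) and Syt3 footprints one of 0.29 ± 0.13 SE (adjusted p = 0.996). The Synpr value was -0.12 without replicate 2. In 3 cases the DHPG estimates had opposite signs in all pairs of the 2 genotypes. These were Sh3gl2 in RNA (-0.036 in WT, 0.047 in Tsc2+/-), Vamp2 in TE (-0.11, 0.082) and Napb in TE (0.067, -0.044). Their interactions had adjusted p of 0.999, 0.9999 and 0.9999. The estimates were as near to 0 as 0.0041 for Sh3gl2 in Tsc2+/- slices without replicate 1 and 0.0021 for Napb in WT slices after the correction for GC content and gene length.

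The range of the 4 group means had a median over members of 0.091 in RNA, 0.116 in RPFs and 0.123 in TE on the log2 scale. The range of the 3 replicate numbers' means was 0.061, 0.115 and 0.114. For 15 members in RNA, 24 in RPFs and 16 in TE the replicate numbers differed more than the groups. Ratios of paralogs were as follows. Vamp2 to Vamp1 RNA per kilobase was 25.6 ± 0.967 with vehicle and 26.8 ± 1.5 with DHPG in WT, and 29.1 ± 2.09 and 27.5 ± 1.9 in Tsc2+/- slices (SD, n = 3). Cplx2 to Cplx1 footprints per kilobase were 1.56 ± 0.119 and 1.59 ± 0.073 in WT, and 1.7 ± 0.0384 and 1.48 ± 0.0426 in Tsc2+/- slices. Napb to Napa footprints were 2.22 ± 0.145 and 2.21 ± 0.0454 in WT, and 2.27 ± 0.127 and 2.32 ± 0.139 in Tsc2+/- slices. The authors kept uniquely mapped reads, so reads that paralogs share could have been dropped before counting, and ratios of close paralogs carry that uncertainty.

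The members were set beside 70 other presynaptic genes, of which 67 were tested in each measure. In 20 of the 21 comparisons none was called. The exception was Rph3a, rabphilin, a vesicle protein that binds Rab3 and SNAP-25, in footprints between genotypes averaged over treatments. Its RPFs were at 202, 172 and 189 CPM in WT vehicle and 191, 182 and 178 CPM in WT DHPG, against 166, 160.2 and 154 CPM in Tsc2+/- vehicle and 160.2, 135 and 166 CPM in Tsc2+/- DHPG. The estimate was -0.24 ± 0.048 SE (adjusted p = 0.046). It kept its sign in 25 alternatives and was called in 15 of them, with DESeq2 at an adjusted p of 0.0176. The call was lost without the replicate block (adjusted p = 0.375) and in 9 of the 15 fits that left out a replicate or library, with an adjusted p of up to 0.932 without replicate 2. Rph3a RNA was at 304 ± 10.7 CPM in WT vehicle and 304 ± 5.02 CPM in Tsc2+/- vehicle (SD, n = 3). The medians of these genes lay within 0.048 of 0 on the log2 scale in every comparison, with the largest, 0.047, for the TE interaction.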

How the data were processed

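The authors aligned RNA-seq and ribosome profiling reads to mm10, kept uniquely mapped reads, collapsed RPF reads by molecular identifier and deposited RSEM expected counts per gene, over transcripts for RNA and over coding sequences without their first and last 30 bases for RPFs. Of the deposited nonzero RPF counts, 97.9 to 98.5% were even numbers in replicates 2 and 3 and 48.2 to 49.0% in replicate 1, so halved counts were an alternative. With the counts of replicates 2 and 3 halved, 10 members had a positive RPF estimate between genotypes in vehicle, as without halving. With DHPG in WT there were 18, against 20 without halving.

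The deposited values were already whole numbers and were tested with edgeR 4.0.16 (R 4.3.3), by TMM scaling, a minimum count of 10 and the quasi-likelihood test, fitted to the 12 libraries of each assay with terms for group and for replicate number, since the study's methods place the replicates in 3 batches. TE was tested over 24 libraries as the interaction of assay and group. The study's methods took RNA and footprints from the same lysate, and the main TE fit did not pair them. A fit with lysate as a block gave 11 positive members in TE between genotypes in vehicle, as in the main fit. With DHPG in WT it gave 14, also as in the main fit. Benjamini-Hochberg adjustment ran over all genes, and a call is an adjusted p under 0.1. DESeq2 1.42.0 was an alternative. Fold changes are Tsc2+/- over WT and DHPG over vehicle. The scripts were tested on simulated data.

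Groups came from the labels. The members and gene lists were chosen with earlier results of these data known. For each comparison and measure, up to 2 members in each direction were named, those with the smallest p among members with the same sign in all pairs. This rule favours members whose groups do not overlap, and the share of all genes without overlap is not given here. Cplx1, Syn1 in the genotype comparison, Vamp2 with DHPG, Syt2 over both treatments, Sypl RNA, Syngr3 and Doc2a over both genotypes, Cplx2 between genotypes in RPFs, Syngr3 RNA and WT footprints, and the Synpr and Syt3 interactions were named after their values were seen. The study's methods call the 3 pools of mice of each group biological replicates. The p-values measure the spread between pools that is left after shifts shared by a replicate number are removed. That spread was estimated over all 4 groups together, with information shared between genes. Intervals on levels cover the spread of 3 libraries only.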

Additional observations from a re-analysis of the deposited data

How the results depend on the processing

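Under batch correction by ComBat that was given the group labels, followed by DESeq2, 4 members were called in RNA between genotypes in vehicle (Vamp2, Syn1, Snph and Unc13a), the same 4 in RNA with DHPG in WT, 4 in RNA with DHPG over both genotypes (Sypl, Syn1, Snph and Rims1), 1 in RPFs between genotypes in vehicle (Cplx1) and 2 in RPFs with DHPG over both genotypes (Syt1 and Syngr3). With only the groups compared, 1 member (Syngr3) was called in RPFs with DHPG in Tsc2+/-. Leaving out 1 replicate or library gave 0 to 1 members called in RNA with DHPG in WT (Syn1 without WT vehicle replicate 2), in RPFs and TE between genotypes in vehicle (Cplx1 without WT vehicle replicate 3), in RPFs with DHPG in Tsc2+/- and in RPFs and TE with DHPG over both genotypes (Syngr3 without WT vehicle replicate 1), and in TE with DHPG in WT (Ppfia3 without WT vehicle replicate 2), and 0 in the other comparisons. The share of all genes called under these settings is not given here, so these counts of members cannot be set against a background. The cause was not tested.

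The median TE of the members was 1.9529 to 2.0638 and its percentile 42.408 to 45.472 when a replicate was left out, with the lowest values without replicate 3. The Dnm1 RPF difference between genotypes over both treatments, -0.039, was 0.002 after the correction for GC content and gene length. The Cplx1 RNA difference between genotypes in vehicle ranged from -0.0331 to 0.0533, that of Cplx2 RNA from -0.0028 to 0.1281, and the Cplx2 RPF interaction from -0.0006 to 0.183. The Syngr3 RNA difference between genotypes in vehicle, -0.0004, was 0.0022 after that correction, 0.0007 with only the groups compared and -0.0311 to 0.018 with a replicate or library left out. Of 92 differences followed through the alternatives, these 5 changed sign in at least 1 of them. In 67 of the 92 at least 1 alternative gave a value smaller than the estimate by over 1.5 times, in 24 after the correction for GC content and gene length and in 62 with a replicate or library left out.

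Without the replicate block, 0 members were called in all 21 comparisons, as with it, and the genotype calls averaged over treatments of Rph3a RPFs (adjusted p = 0.375) and Prox1 RNA (adjusted p = 0.125), genes that are no members, were lost. Correlations were taken between libraries of different groups, after each group's mean log2 CPM was subtracted. Same-numbered libraries had correlations of 0.0013 to 0.215 in RNA and 0.0498 to 0.293 in RPFs. Those with unlike numbers had -0.196 to 0.0593 in RNA and -0.232 to 0.0771 in RPFs. In each assay 12 of 12 libraries had the highest mean correlation with those of their own number. The study's methods place the replicates of each group in 3 batches, without saying which number belonged to which batch. Depth limits Unc13c, Syt2, Doc2a and Rims3, whose RPF counts were low. At a minimum count of 50, 46 members were kept.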
